A study of Mus musculus with 2 samples.

Results

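The miR-30 family was followed here through 7 mature microRNAs (miRNAs), chosen by name: the 5p arms mmu-miR-30a-5p, mmu-miR-30b-5p, mmu-miR-30c-5p, mmu-miR-30d-5p and mmu-miR-30e-5p and the 3p arms mmu-miR-30a-3p and mmu-miR-30e-3p, written below without the species prefix. All 7 were among the 1247 mouse miRNAs with probes on the array. The samples were cartilage peeled from the knees of 8-week-old males, and each group had 1 one-colour Agilent miRNA array. The Col2a1Tsc1KO sample carries the genotype label Col2a1; Tsc1 KO, and the series text describes a loss of Tsc1, the brake on the growth kinase complex mTORC1, that is specific to Col2a1, the gene of the main cartilage collagen. The control sample is labelled wildtype. The sources used here do not give the Cre line, the timing of the deletion or the number of mice in each sample. The array does not measure Tsc1 mRNA, so the label could not be checked. With 1 array per group there is no replicate check of any difference below, no p-value was computed, and the number of arrays limits the precision. Errors are standard errors (SE) over the spots within the arrays and cover spot noise only. Both arrays lay on 1 slide, so genotype cannot be told apart from slide position.

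A miRNA hairpin yields a 5p and a 3p arm, of which usually 1 arm is loaded into Argonaute as the guide and the other is mostly degraded. The guide finds its messenger RNAs mainly through its seed, bases 2 to 8, so miRNAs with a common seed can share many targets. In the miR-30 family the 5p arms are the usual guides. In mesenchymal and bone-forming cells, miR-30 members are known to repress Runx2, the transcription factor that drives osteoblast and hypertrophic chondrocyte maturation, and Smad1, which carries bone morphogenetic protein signals. miR-30a is also known to repress Becn1, which starts autophagy.

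RefSeq, build GRCm38.p6, gave a mature sequence for 5 of the 7 members. They are printed 5′ to 3′ with the seed in capitals, because the seed divides the family into its arms and the remaining bases decide how well the probes can tell members apart.
miR-30a-5p: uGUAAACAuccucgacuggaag
miR-30c-5p: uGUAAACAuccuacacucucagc
miR-30e-5p: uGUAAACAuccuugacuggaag
miR-30a-3p: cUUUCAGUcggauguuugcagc
miR-30e-3p: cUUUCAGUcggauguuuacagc
The 3 5p arms shown share the seed GUAAACA, which in the RefSeq table of 1679 mature mouse miRNAs is held by 4, the fourth being miR-384-5p. That table has no mature entry for miR-30b-5p or miR-30d-5p, so the count leaves out these members whatever their seed. The 2 3p arms share the seed UUUCAGU, held by no other entry of that table. Counted from the 5′ end of miR-30a-5p, miR-30e-5p differs from it at 1 of 22 bases, C13U. The 3p arms of these hairpins differ at 1 of 22 bases as well, G18A from miR-30a-3p to miR-30e-3p. miR-30c-5p differs from miR-30a-5p at 5 of the 22 bases they have in common.

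The family comes from 6 hairpins in 3 pairs (GRCm38.p6). Mir30a lies at chr1:23272269-23272339 and Mir30c-2 at chr1:23291701-23291784, both outside the span of any other annotated gene. Mir30c-1, at chr4:120769534-120769622, and Mir30e, at chr4:120772606-120772697, both lie within the span of Nfyc, which encodes a subunit of the transcription factor NF-Y. Mir30b at chr15:68337415-68337510 and Mir30d at chr15:68341208-68341289 form the third pair, outside the span of any other annotated gene. The gap between neighbours is 19361 bases on chromosome 1, 2983 bases on chromosome 4 and 3697 bases on chromosome 15. miR-30c-5p has the same sequence from Mir30c-1 and Mir30c-2, so its signal cannot be assigned to either hairpin.

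Each probe of these 5 members is the DNA complement of the 3′ end of its miRNA and reaches a variable distance toward the seed. The 3 probes of miR-30a-5p show the design, with capitals for the base opposite position 13 of the miRNA, the only one at which miR-30e-5p differs.
15-base probe: cttccagtcGaggat
16-base probe: cttccagtcGaggatg
17-base probe: cttccagtcGaggatgt
Each of these probes has 1 mismatch to miR-30e-5p and 5 to miR-30c-5p. The probes of miR-30e-5p likewise have 1 mismatch to miR-30a-5p. How far the arrays separate these near-identical members was not tested. Mismatches to miR-30b-5p and miR-30d-5p were not counted, because RefSeq gave no mature sequence for them.

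Fluorescence is given as the background-subtracted intensity of a spot, in arbitrary units as deposited, unless called scaled. A miRNA is called measured when at least 1 of its probes had most usable spots marked by the software as well above background on each array. All 5 of the 5p arms were measured, and all 185 of their usable spots on the Col2a1Tsc1KO array and all 190 on the control array were so marked. All 5 were brighter on the Col2a1Tsc1KO array. With signals expressed relative to the 75th percentile of their array, the excess was 1.39-fold to 1.84-fold, with a median log2 difference of 0.49 for Col2a1Tsc1KO minus control, or 1.41-fold. Over all 257 measured miRNAs the median at this scaling was -0.22, and 40.9% were higher on the Col2a1Tsc1KO array. Without scaling that median was 0.19. At a threshold of 2-fold, 0 of the 5 arms were apart, against a background of 33.1% of the 257 miRNAs (15.6% higher and 17.5% lower). The 75th percentile over probes well above background on both arrays was 470.0 on the Col2a1Tsc1KO array and 353.6 on the control array. The scaling removes this log2 difference of 0.41. Unscaled, spike-in probes, for RNAs added in equal amount to each sample, had a mean log2 difference of 0.01.

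miR-30a-5p, from the chromosome 1 pair, had the largest difference of the 5 measured 5p arms. Its 17-base probe had a median of 679 over usable spots on the Col2a1Tsc1KO array, with spots between 589 and 748, and a median of 269 on the control array, with spots between 252 and 281. Its 16-base probe had a median of 384 (325 to 421) on the Col2a1Tsc1KO array and 159 (134 to 171) on the control array. Its 15-base probe had a median of 155 (142 to 192) on the Col2a1Tsc1KO array and 65.3 (52.2 to 81.3) on the control array. No usable spot of these 3 probes on the control array reached the lowest spot of the same probe on the Col2a1Tsc1KO array, before or after scaling. How common such separation is over all measured probes is not given here. The scaled log2 differences of the 3 probes, 0.85, 0.86 and 0.93 from the shortest to the longest, lay within 0.08 of each other. For the miRNA, the scaled intensity was 297.2 on the Col2a1Tsc1KO array and 161.7 on the control array, a log2 difference of 0.88 ± 0.03, or 1.84-fold. It ranked 46 of 257 from the highest.

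miR-30b-5p, one of the chromosome 15 pair, stood next. Its 17-base probe had a median of 730 (642 to 793) on the Col2a1Tsc1KO array and 343 (318 to 396) on the control array. Its 16-base probe had a median of 119.5 (96.0 to 143) on the Col2a1Tsc1KO array and 60.9 (52.1 to 74.3) on the control array. Before scaling, the usable spots of neither probe overlapped between the arrays; after scaling, those of the 16-base probe did, the lowest Col2a1Tsc1KO spot at 83.3 and the highest control spot at 85.7. The scaled intensity was 253.1 on the Col2a1Tsc1KO array and 167.1 on the control array, a log2 difference of 0.60 ± 0.03, or 1.51-fold.

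The other chromosome 15 member, miR-30d-5p, had the shortest probes. Its 14-base probe had a median of 156.5 (147 to 175) on the Col2a1Tsc1KO array and 85.0 (76.1 to 96.0) on the control array. Its 13-base probe had a median of 132.5 (114 to 153) on the Col2a1Tsc1KO array and 70.8 (57.6 to 80.6) on the control array. The spots of neither probe overlapped, before or after scaling. The scaled log2 difference was 0.49 ± 0.02, or 1.41-fold, from scaled intensities of 125.1 on the Col2a1Tsc1KO array and 88.9 on the control array.

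miR-30c-5p, which is made from chromosomes 1 and 4 and has been reported to target Runx2, had the probes that agreed least. Its 18-base probe had a median of 477 (382 to 582) on the Col2a1Tsc1KO array and 237.5 (206 to 266) on the control array, a scaled log2 difference of 0.61 ± 0.04. Its 17-base probe had spots between 83.2 and 126 on the Col2a1Tsc1KO array and between 49.8 and 80.7 on the control array, a scaled log2 difference of 0.36 ± 0.06. The gap between its probes, 0.25, exceeded the median gap of 0.08 over the 191 miRNAs with more than 1 such probe. Spots of the 18-base probe did not overlap between the arrays before or after scaling. Those of the 17-base probe overlapped after scaling, with the lowest Col2a1Tsc1KO spot at 72.2 and the highest control spot at 93.0, and before scaling once spots with an outlier flag were kept. Their mean gave a scaled log2 difference of 0.49 ± 0.04 for the miRNA, or 1.40-fold, from scaled intensities of 194.7 on the Col2a1Tsc1KO array and 139.1 on the control array.

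miR-30e-5p, from within Nfyc, had the smallest difference of the 5p arms. Its 17-base probe had a median of 354.5 (293 to 393) on the Col2a1Tsc1KO array and 192 (181 to 205) on the control array. Its 16-base probe had a median of 100.2 (85.0 to 111) on the Col2a1Tsc1KO array and 53.6 (44.7 to 60.3) on the control array. Usable spots of neither probe overlapped before or after scaling, though those of the 16-base probe did before scaling once spots with an outlier flag were kept. The scaled log2 difference was 0.47 ± 0.02, or 1.39-fold, from scaled intensities of 161.9 on the Col2a1Tsc1KO array and 116.5 on the control array. Its probes agreed within 0.02.

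**Figure D1:**
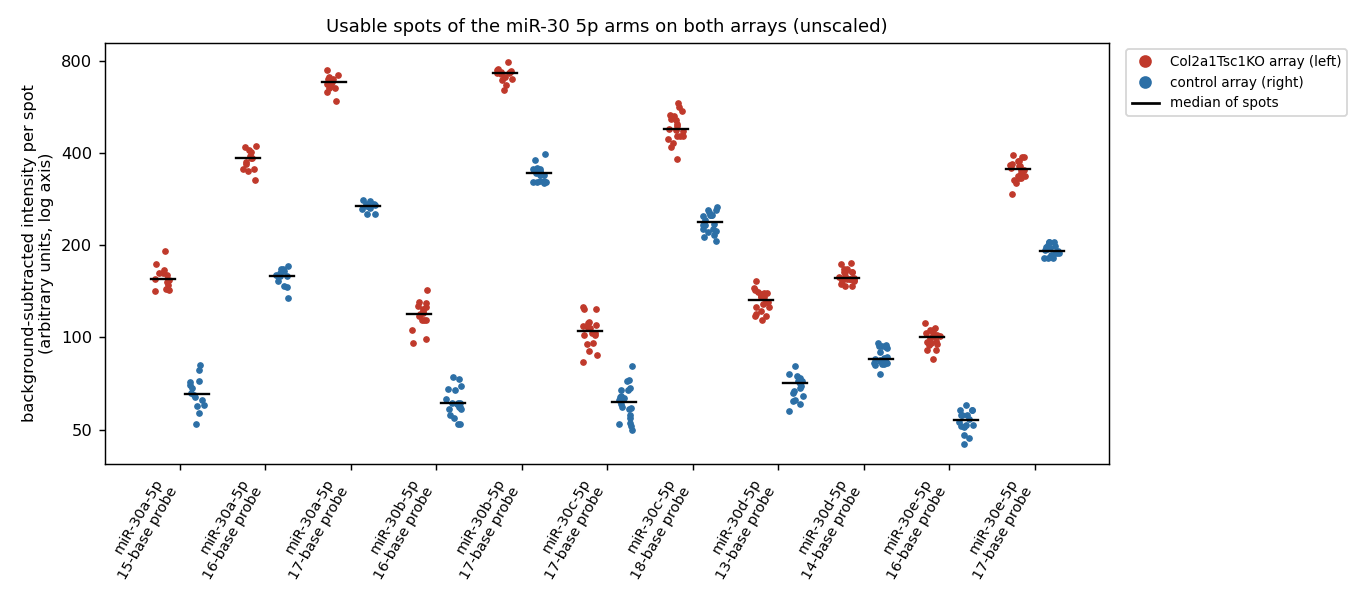
Background-subtracted intensity per usable spot (arbitrary units, log axis) for the 11 probes of the 5 miR-30 5p arms, with the Col2a1Tsc1KO array left of the control array for each probe and a bar at the median of the spots. In all 11 probes every usable Col2a1Tsc1KO spot lies above every usable control spot before scaling, with unscaled log2 differences between 0.77 and 1.34. After scaling this holds for 9 of the 11. The share of all measured probes with such separation is not given here, so the count does not set miR-30 apart from other miRNAs.

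Within the family, miR-30a-5p stood apart from the rest, and 3 arms differed from each other by less than their SE. The log2 difference of miR-30a-5p exceeded that of miR-30b-5p by 0.28 ± 0.04 (SE over spots). It exceeded that of miR-30e-5p, which differs from miR-30a-5p at 1 of 22 bases, by 0.40 ± 0.03. miR-30b-5p exceeded miR-30c-5p by 0.11 ± 0.05 and miR-30e-5p by 0.12 ± 0.04. These SE leave out disagreement between the probes of a miRNA. The probes of miR-30b-5p gave 0.54 and 0.66 and overlapped in value with those of miR-30c-5p, 0.36 and 0.61. Of the remaining gaps, those among miR-30c-5p, miR-30d-5p and miR-30e-5p were at most 0.02 in size, with SE between 0.03 and 0.04. The 2 arms of the chromosome 15 pair differed by 0.11 ± 0.04. Levels are not ranked between members, because probes of different sequence and length bind with different strength.

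**Figure D2:**
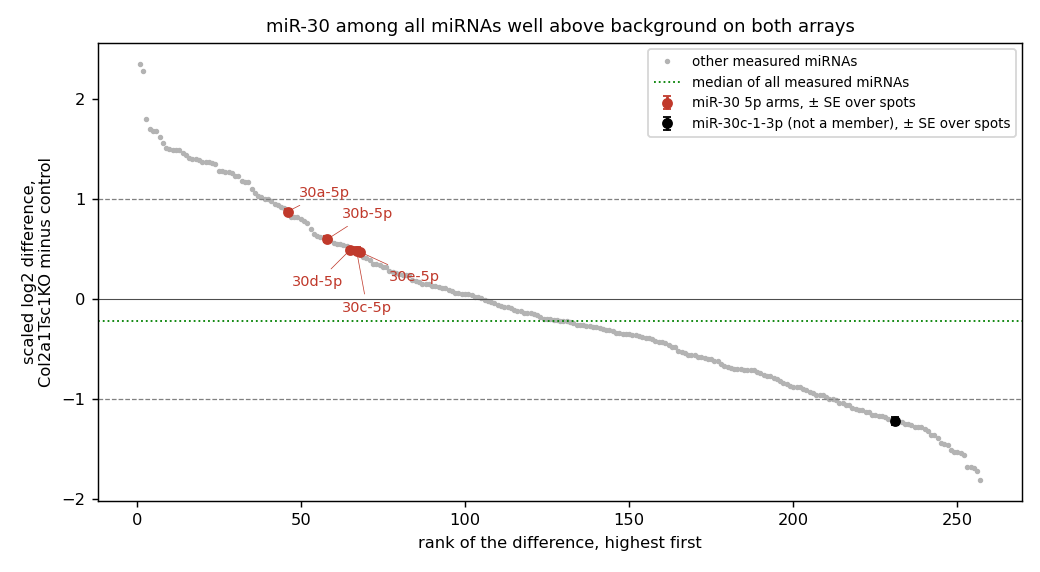
Scaled log2 difference, Col2a1Tsc1KO minus control, of the 257 measured miRNAs, ordered from the highest; red points are the 5 miR-30 5p arms and the black point is miR-30c-1-3p, with SE over spots, and dashed lines mark 2-fold. The 5p arms hold ranks 46 to 68, between 0 and the line for 2-fold higher and above the dotted median of -0.22, and miR-30c-1-3p holds rank 231.

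Both 3p members were well above background on the Col2a1Tsc1KO array alone, and only through their brighter probe. The 17-base probe of miR-30a-3p had a median of 35.5 (25.0 to 42.6) on the Col2a1Tsc1KO array, with all 20 usable spots well above background. On the control array its median was 12.2 (5.0 to 20.4), with 0 of 20 spots so marked. These spots did not overlap before scaling and did after it, with the lowest Col2a1Tsc1KO spot at 21.7 and the highest control spot at 23.5. The 16-base probe of miR-30a-3p had a median of 18.2 (12.5 to 22.7) on the Col2a1Tsc1KO array and 5.52 (-0.88 to 10.1) on the control array, where negative-control spots had a median of 4.93 on the Col2a1Tsc1KO array and 5.02 on the control array. The measured scaled intensities of the brighter probe were 30.6 on the Col2a1Tsc1KO array and 13.1 on the control array. Because the control value is not well above background, the difference is given as a bound: at least 1.23-fold higher on the Col2a1Tsc1KO array, taking the lowest control signal well above background, 24.9, as the limit. The bound depends on the scaling and was 1.64-fold without it.

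For miR-30e-3p the signals of both arrays were near that limit. Its 18-base probe had a median of 31.9 (22.3 to 42.1) on the Col2a1Tsc1KO array, with all 19 usable spots well above background, and 20.1 (13.6 to 28.6) on the control array, with 7 of 19 so marked. The spots of the arrays overlapped. Its 17-base probe had a median of 8.81 on the Col2a1Tsc1KO array and 4.96 on the control array, with no spot well above background on either. The measured scaled intensities of the 18-base probe were 27.3 on the Col2a1Tsc1KO array and 23.5 on the control array. The bound was 1.099-fold higher on the Col2a1Tsc1KO array, or 1.46-fold without scaling. It leaves out spot noise: the scaled bound was 0.14 in log2, and the SE over spots of this probe's difference was 0.10.

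**Figure D3:**
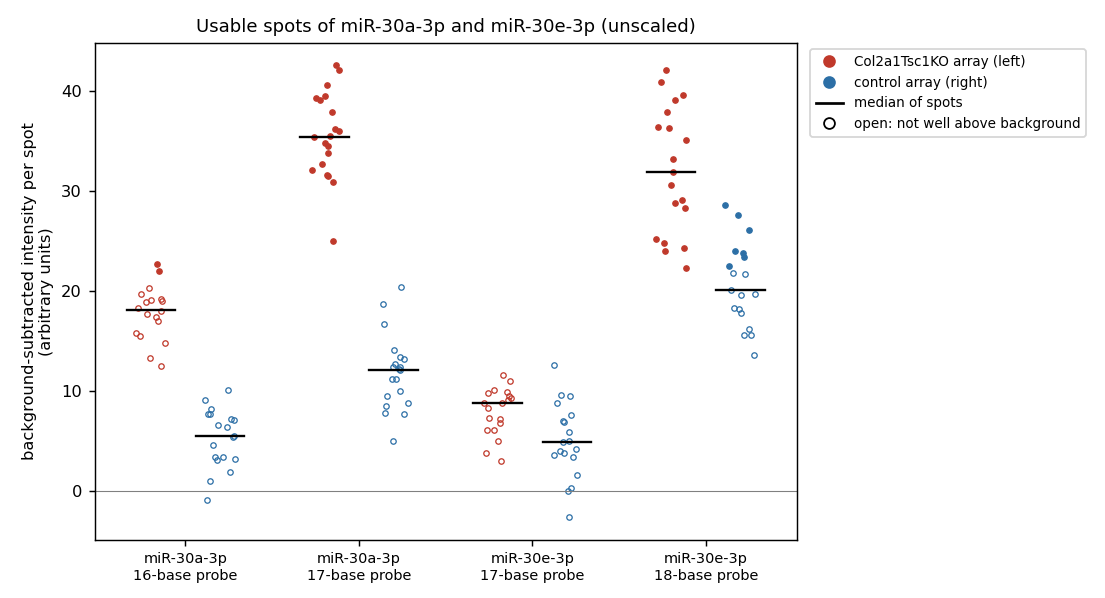
Background-subtracted intensity per usable spot (arbitrary units, linear axis) for the 2 probes each of miR-30a-3p and miR-30e-3p, with the Col2a1Tsc1KO array left of the control array, filled points for spots well above background and a bar at the median. Before scaling the 17-base probe of miR-30a-3p separates the arrays (25.0 to 42.6 for Col2a1Tsc1KO, 5.0 to 20.4 for control), whereas the spots of both miR-30e-3p probes overlap.

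The arms of a hairpin come from 1 precursor. A scaling constant cancels when the difference of 1 arm is subtracted from that of the other, as it would for any miRNAs. With bounds for the 3p arms, the log2 difference of the 3p arm minus that of the 5p arm was at least -0.58 for miR-30a and at least -0.34 for miR-30e, which leaves its sign unsettled in both. Over the 19 hairpins with both arms measured, this quantity had a median of -0.36 and ran from -2.43 to 1.73, and the 3p arm stood above the 5p arm in 4. A further arm of the family, miR-30c-1-3p, is not a member but was measured on both arrays and opposed the rest. Its longest and brightest probe had a median of 63.4 (52.8 to 74.4) on the Col2a1Tsc1KO array and 107.5 (89.6 to 121) on the control array, with no overlap, and its 4 probes agreed within 0.09. Its other probes had medians from 26.0 to 33.55 on the Col2a1Tsc1KO array and from 47.6 to 57.45 on the control array. For the miRNA, the scaled intensity was 73.2 on the control array but 31.5 on the Col2a1Tsc1KO array, close to the control limit of 24.9 used above. The scaled log2 difference of miR-30c-1-3p was -1.21 ± 0.04, or 2.32-fold lower on the Col2a1Tsc1KO array, where 17.5% of the 257 miRNAs were at least 2-fold lower. It stayed negative under the 14 alternatives but was under 2-fold lower in 7 of them, with a range from -1.21 to -0.42. It stood 1.70 below miR-30c-5p on the log2 scale, although its hairpin Mir30c-1 is one of the sources of that arm. Its mature sequence shares no seed with the members:
miR-30c-1-3p: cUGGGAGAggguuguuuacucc
The remaining relatives miR-30b-3p, miR-30c-2-3p, miR-30d-3p and miR-30f, and miR-384-5p with the seed of the 5p arms, had no probe well above background on either the Col2a1Tsc1KO or the control array; miR-384-5p was chosen after its values were seen.

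Set against other miRNAs, the excess of the 5p arms was moderate. The comparison families let-7 with miR-98, miR-29 and miR-26, each built from several loci, also had all measured members higher on the Col2a1Tsc1KO array. They were chosen with earlier results known, and other families built from several loci were not summarised. The 9 measured let-7 and miR-98 members, which restrain growth genes, had a median log2 difference of 0.82 (0.24 to 1.62). The collagen-repressing miR-29 family had 0.62 (0.49 to 0.78) over 3 members, and the 2 miR-26 members had 0.80 and 0.55. Of 10 other miRNAs reported to target Runx2, 5 were measured, with a median of 0.24. Of these, miR-218-5p (1.80 ± 0.04) and miR-23a-3p (1.23 ± 0.01) were at least 2-fold higher on the Col2a1Tsc1KO array, miR-204-5p was at 0.24 ± 0.04, and miR-338-3p (-0.29 ± 0.04) and the muscle miRNA miR-133a-3p (-0.99 ± 0.02) were lower. The 40 other miRNAs whose mean scaled intensity lay in the range of the 5p arms had a median of -0.30, and 18 of them were higher on the Col2a1Tsc1KO array. None of these comparisons was tested. Outside the family, the 5 miRNAs with the log2 difference nearest to the 5p median, over these 2 arrays, were miR-29b-3p (0.49), miR-690 (0.54), miR-15a-5p (0.54), miR-26b-5p (0.55) and the red cell miRNA miR-451a (0.55).

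Markers of cartilage and of other cells also differed between the samples. Of 9 chondrocyte miRNAs, 6 were measured, with a summed scaled intensity of 5524 on the Col2a1Tsc1KO array and 2430 on the control array. Most of that sum was miR-140, the defining cartilage miRNA. Its 5p arm stood at 2713 for Col2a1Tsc1KO and 1046 for control, and its 3p arm at 2403 for Col2a1Tsc1KO and 1197 for control. Of the 6, 5 had positive log2 differences and miR-455-5p had -0.03 ± 0.14. For skeletal muscle (4 of 6 measured) the sum was 737.4 on the Col2a1Tsc1KO array and 1410 on the control array. Its largest part was miR-1a-3p, at 406.0 for Col2a1Tsc1KO and 777.5 for control. Of the 4, 3 had negative log2 differences and miR-206-3p had 0.05 ± 0.08. For leukocytes (5 of 7) the sum was 4494 for Col2a1Tsc1KO and 9670 for control. Most of that sum was miR-223-3p, at 3632 for Col2a1Tsc1KO and 8163 for control, while 2 of the 5, miR-150-5p (0.64) and miR-155-5p (0.15), had positive log2 differences. For red cells (2 of 5) the sum was 3472 for Col2a1Tsc1KO and 2340 for control. Endothelium (2 of 2) had 1977 for Col2a1Tsc1KO and 1555 for control, and fibroblasts and smooth muscle (2 of 3) 424.8 for Col2a1Tsc1KO and 161.8 for control. Of the neural list 1 of 3 was measured, and of the epithelial list 0 of 5. The miR-30 members are made in many of these cell types. The part of cell composition in their differences was not tested, and more cells of a type and more RNA per cell cannot be told apart in such samples.

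How the arrays were scaled set the size of the excess but not its direction. Under 14 alternative settings all 5 of the 5p arms remained higher on the Col2a1Tsc1KO array, above the median of all measured miRNAs, and miR-30a-5p had the largest difference of the 5 each time. Median scaling, spike-in scaling, the percentile over all probes and no scaling only shift every difference by a constant. There the order of the arms and their place against that median were fixed in advance. Keeping dim probes at a floor left the 5p values unchanged. Requiring every usable spot to be well above background moved all 5 of the 5p arms by the same amount, so their order was fixed there too. The spike-in probes, RNAs added in equal amount to each sample, had a mean log2 difference of 0.01 without scaling. Scaled to them, the median of the 5p arms was 0.89, and miR-30a-5p passed 2-fold at 1.27. The lowest and highest differences of miR-30a-5p over the alternatives were 0.73 and 1.39, those of miR-30b-5p 0.48 and 1.14, those of miR-30c-5p 0.43 and 1.06, those of miR-30d-5p 0.36 and 0.99, and those of miR-30e-5p 0.32 and 0.97. The deposited log2 values gave miR-30a-5p 8.19 on the Col2a1Tsc1KO array and 7.22 on the control array, and placed miR-30a-3p at 4.29 on the Col2a1Tsc1KO array and at the floor of the control column.

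**Figure D4:**
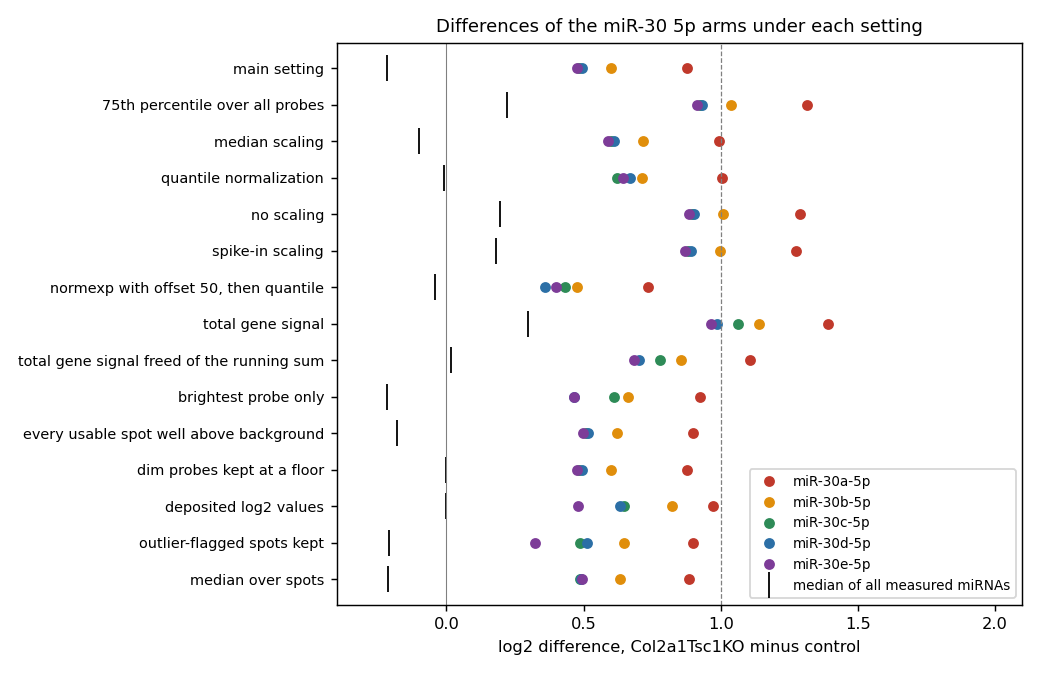
Log2 difference, Col2a1Tsc1KO minus control, of the 5 miR-30 5p arms (coloured points) at the main setting and under the 14 alternatives, with a black bar at the median of all measured miRNAs and a dashed line at 2-fold. The points move with the scaling but stay right of 0 and of the bar in every row, and miR-30a-5p is the rightmost throughout, between 0.73 and 1.39 under the alternatives. Rows that differ from the main setting only by a constant keep the order of the points by construction.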

How the data were processed

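Each sample was hybridised to 1 array, and the groups follow the sample titles. Per the submitters' processing notes, the authors extracted the spots with Agilent Feature Extraction 10.7, which, per the file headers, wrote a background-subtracted, spatially detrended intensity with no scaling between arrays, flags (coded as other values in the deposited files) and total signals. The authors also deposited log2 values per miRNA. The sources used here do not give their making. Their column medians, -3.32 for Col2a1Tsc1KO and -3.26 for control, equal their floors. Their direction follows the signals, and any centring or scaling between the columns stays unknown.

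From these files, spots with an outlier flag were dropped and log2 intensities were averaged per probe. A probe passed on an array when over 50% of its usable spots were marked well above background. The 476 probes that passed on both arrays set each array's 75th percentile, to which it was scaled (log2 values shown as scaled intensities around the mean of both percentiles), and a miRNA took the mean over such probes. The steps were tested on simulated data. Named miRNAs were the members, their hairpins' other arms, the measured Runx2-targeting miRNAs, the comparison families, the 5 nearest in difference and some measured cell markers. miR-384-5p was added after its values were seen. Members, lists and alternatives were chosen with earlier results of these data known. Python 3.11.15, pandas 2.3.3, R 4.3.3 and limma 3.58.1 (normexp) were used.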

Additional observations from a re-analysis of the deposited data

How the results depend on the processing

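The median log2 difference of the 5p arms, 0.49 at the main setting, stayed positive under all 14 alternatives. Taking every probe into the 75th percentile gave 0.93, leaving the arrays unscaled 0.90, scaling to spike-ins 0.89, quantile normalization 0.67 and scaling to the median 0.61. It was 0.43 with normexp (offset 50) and quantile normalization together, 1.06 with the software's total gene signals, 0.78 with these freed of a running sum, 0.61 with the brightest probe only and 0.65 in the deposited log2 values. The number of members at least 2-fold apart, 0 at the main setting, was 2 when every probe entered the percentile (23.3% of all measured miRNAs were then at least 2-fold higher) or the arrays were unscaled (23.0%), 1 for spike-ins (22.2%), quantile normalization (15.6%) and the freed totals (19.8%), and 3 for the totals as written (26.3%). For miR-30e, the 3p minus 5p log2 difference, a bound of -0.34 at the main setting, had values of -0.25 with the totals, as written and freed, and -0.0195 in the deposited log2 values, and was -0.41 with dim probes kept at a floor. For miR-30a the floor gave -0.73, against a bound of -0.58 at the main setting, and the other alternatives gave none. Results with a dim control arm at a floor are bounds, not measured values. The median of all measured miRNAs moved up by 0.44 when every probe entered the percentile, 0.41 unscaled and 0.40 for spike-ins, a constant added to every difference, and by 0.51 for the totals as written, over 304 miRNAs. Of all miRNAs, 40 were at least 2-fold higher and 45 lower at the main setting, against 59 and 13 unscaled and 15 and 9 with normexp and quantile normalization together (quantile alone 40 and 35). The cause of these shifts beyond their construction was not tested. The 3p arms are limited by signal over background on the control array. No paired analysis was possible because each group has 1 array.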
